A study of Homo sapiens with 8 samples.

Results

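YAP1 was knocked down in EnzaR cells, a prostate cancer line resistant to enzalutamide, and transcripts were compared with those of the same cells given a control siRNA. Enzalutamide is an antiandrogen drug. The comparison used every library that the labels give for EnzaR cells, 4 of the 8 in the series: 2 with control siRNA (siNC) and 2 with siRNA against YAP1 (siYAP1). Both groups were grown with 10 uM enzalutamide and received 40 nM of siRNA for 48 h. The other 4 libraries are of LNCaP cells and did not enter. The labels name neither the siRNA sequence nor how many different siRNAs were used, and they describe EnzaR only as a resistant line. Whether replicates came from separate cultures is not stated, so a p-value here reflects variation among 4 libraries that may be technical only.

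YAP1 is a transcriptional co-activator that binds DNA through the TEAD factors. The Hippo kinases MST and LATS phosphorylate it and keep it in the cytoplasm, and cell contact, a soft matrix and detachment act in part through them. When YAP1 enters the nucleus, TEAD-bound genes for the matrix, the cytoskeleton and growth are switched on, along with genes such as AMOTL2 and LATS2 that restrain YAP1 in turn. In prostate cancer YAP1 is known for its link with androgen-independent growth.

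TEAD factors recognise the core GGAATG, so promoters of the named genes that fell were searched for these letters on either strand, in the window from 250 bases before to 50 bases after the gene start. Promoter sequences are those of RefSeq (GRCh38.p14). The promoters shown are those of YAP1 (chr11:102110197-102110496, plus strand) and HOXA10 (chr7:27179812-27180111, minus strand). They are the promoters that held a match among the 20 genes named below as lower, other than ADAM9 and ST3GAL2, whose promoters were not used. The match, in capitals, begins 162 bases before the start of YAP1 and 234 bases before that of HOXA10.
YAP1 promoter: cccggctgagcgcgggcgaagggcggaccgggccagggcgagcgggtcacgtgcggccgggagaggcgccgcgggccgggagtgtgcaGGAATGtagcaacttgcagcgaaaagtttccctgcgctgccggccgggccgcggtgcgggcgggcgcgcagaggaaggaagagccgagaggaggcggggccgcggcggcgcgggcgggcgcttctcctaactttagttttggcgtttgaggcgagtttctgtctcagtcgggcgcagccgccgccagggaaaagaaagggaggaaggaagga
HOXA10 promoter: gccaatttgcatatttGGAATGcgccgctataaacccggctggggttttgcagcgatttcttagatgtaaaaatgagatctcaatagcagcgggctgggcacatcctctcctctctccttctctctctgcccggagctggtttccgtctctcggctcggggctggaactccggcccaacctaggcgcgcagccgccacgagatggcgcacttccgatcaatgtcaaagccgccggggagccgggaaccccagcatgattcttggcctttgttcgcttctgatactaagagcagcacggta
The core was found in 18 of 154 promoters of genes lower in siYAP1 cells after both analyses described below (11.7%) and in 14 of 130 of genes higher (10.8%). Over all genes in both analyses the share was 1153 of 10691 (10.8%), and over all 27305 promoters of the table it was 14%. BANF1, RAD54L2 and TRMT112, which rose, also held a match. YAP1, counted here among the genes lower, is itself the siRNA target. A match is a description of letters and not a binding site.

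The siRNA target itself had levels of 57.4 and 47.6 CPM (counts relative to the library total, scaled by TMM) with control siRNA, against 5.79 and 7.07 CPM after knockdown. YAP1 (ENSG00000137693) lies on chromosome 11 from 101981192 to 102104154 in hg19, the build of the deposited table. Its log2 fold change was -3.02 (SE 0.154, adjusted p = 2.07e-10 by the edgeR quasi-likelihood test). Across every alternative computed the value stayed between -3.17 and -2.70, and each passed the test.

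Total counts lay between 16682669 and 18248939 per library, and 3 counts corresponded to 0.164 to 0.18 CPM. siYAP1 replicate 1 had the lowest total and the fewest genes with a count, 20927 beside 21728 to 22222 in the other libraries. Mitochondrially encoded transcripts took 6.65% to 6.83% of counts. All 10 markers of luminal prostate cells were present, with summed FPKM (fragments per kilobase of exon, scaled to the library total) of 944.62 to 987.59. The basal markers KRT5, TP63 and KRT6A, the leukocyte markers PTPRC, CD3D and CD3E and the endothelial markers CDH5, KDR and ERG had 0 counts in every library. Other members of these lists were counted in every library. The basal markers DST and LAMB3 had 90 to 238 and 27 to 51 counts, the leukocyte marker CD4 17 to 31 and the endothelial marker VWF 128 to 165. PECAM1 made up nearly all of the endothelial sum, at 24.65 to 30.44 FPKM. Of the fibroblast markers, COL3A1, DCN, LUM and COL1A2 had 58, 7, 6 and 6 counts in siYAP1 replicate 2 and 0 in the other 3 libraries. COL1A1 and ACTA2 were counted in every library, at 294 to 400 and 294 to 514.

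The difference between the groups followed the base composition of transcripts and the exonic length of genes. Among 8745 genes with a mean of at least 10 CPM, the log2 ratio of siYAP1 to siNC had a Spearman rho of 0.619 with transcript GC content and of -0.419 with exonic length. This correlation is across genes, which share the 4 libraries and are not independent. In the tenth of genes with the lowest GC content (median 37.6%) the median log2 ratio was -0.276, and in the tenth with the highest (median 64.42%) it was 0.238. Genes with a median length of 1516 bases had a median of 0.233, and those of 11760 bases had -0.23. Replicates of one group also differed by length. The siYAP1 replicates, 2 against 1, gave a rho of 0.487 with length and -0.178 with GC content, and the siNC replicates -0.159 and 0.0552. A trend of this kind and an effect of the knockdown on short or GC-rich transcripts cannot be told apart here, since its direction follows the groups.

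**Figure D1:**
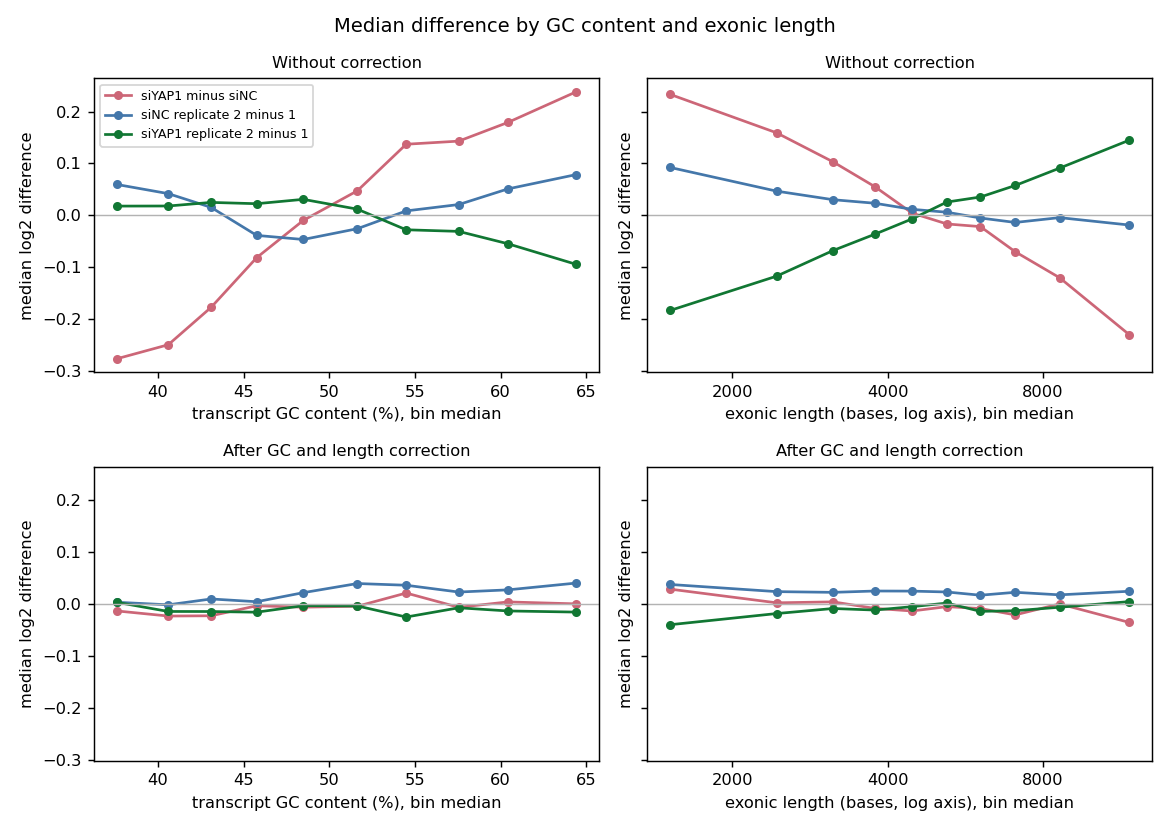
Median log2 difference (vertical axis) in 10 equal groups of genes ordered by transcript GC content in percent (left) or exonic length in bases on a log axis (right), before (top) and after (bottom) the correction. Red lines compare siYAP1 with siNC, and blue and green lines compare replicates of one group. Before correction the red line runs from -0.276 to 0.238 over GC content and from 0.233 to -0.23 over length, and after correction its points lie between -0.0354 and 0.0288.

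Genes were therefore compared in 2 fits of edgeR. The uncorrected fit used the deposited counts, and the corrected fit added to each library a smooth surface over GC content and length as an offset. After the correction rho was 0.0238 with GC content and -0.0527 with length, and the SD of the log2 ratios between the groups fell from 0.281 to 0.208. The SD between replicates was 0.183 (siNC) and 0.191 (siYAP1) before and 0.175 and 0.165 after. A gene is called here at an adjusted p under 0.05 in both fits with the same sign, unless a single fit is named.

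Few of the uncorrected calls were also calls after the correction. The uncorrected fit, over 14948 genes, called 872 (5.83%) higher and 930 (6.22%) lower after knockdown. In the corrected fit, which could use 14547 genes, 264 (1.81%) were higher and 280 (1.92%) lower. Both fits called 152 genes higher (1.04%) and 209 lower (1.44%), which is 17.4% of the uncorrected calls higher and 22.5% of those lower, and 57.6% and 74.6% of the corrected calls. In either direction the shares called were 12.1%, 3.74% and 2.48% of genes. The split between directions depended on scaling: library totals alone gave 291 higher and 1416 lower, with the median of all genes shifted by -0.104 (log2), and DESeq2 gave 916 and 467.

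The genes lost and kept differed in composition. Genes called higher without the correction alone had a median GC content of 60.6% and a median length of 2706 bases. Those called lower without it alone had 40.7% and 7173 bases. The genes called in both fits lay nearer the median of all genes (49.4% and 4319 bases), at 51.8% and 4468 bases for those higher and 47.7% and 5772 bases for those lower. Of the 152 and 209 genes, 143 and 201 were protein coding, 22 and 98 differed by at least 1.5-fold in both fits, and 5 and 31 by at least 2-fold. Among these called genes the median log2 fold change was -0.709 (corrected -0.606) for falls and 0.491 (corrected 0.449) for rises. The falls lay at a lower median level, 23.5 CPM against 95.0 CPM, where a larger change is needed for a call. How far this accounts for the difference in size was not tested.

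The call count fell most when siYAP1 replicate 1 was left out, which leaves 1 library in its group. Without siYAP1 replicate 1 the uncorrected fit called 3 genes higher and 1 lower, and the corrected fit called 50 and 77. Of the 152 and 209 genes called in both fits, 38 and 67 were still called in the corrected fit without that library, against 90 and 164 without siNC replicate 1, 125 and 160 without siNC replicate 2 and 135 and 152 without siYAP1 replicate 2. All 361 kept their sign in these 4 corrected fits, which share 3 libraries with the complete one.

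**Figure D2:**
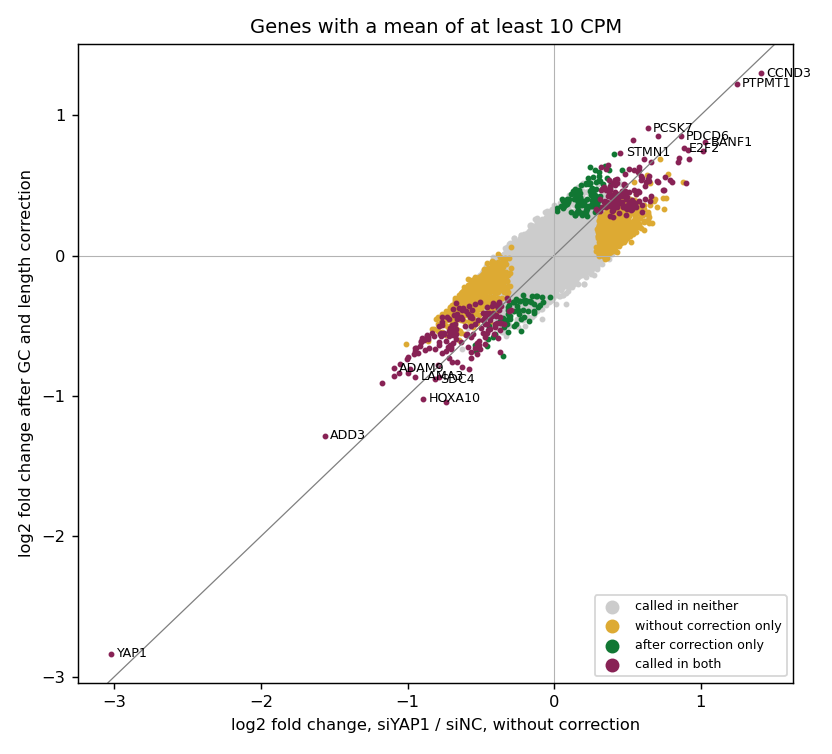
Log2 fold change of siYAP1 over siNC without (horizontal axis) and with (vertical axis) the GC and length correction, 1 point per gene with a mean of at least 10 CPM, coloured by the fits that called it. YAP1 lies at -3.02 and -2.84, ADD3 at -1.56 and -1.28 and CCND3 at 1.41 and 1.30, all near the diagonal. Genes called without the correction alone (yellow) lie nearer 0 on the vertical axis.

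At a mean of at least 10 CPM, 144 genes (1.65% of 8745) were called higher and 159 (1.82%) lower. The 20 in each direction with the largest change in the smaller of the 2 fits are described next, with YAP1 among those lower. Their log2 fold changes ran from 0.57 to 1.41 and from -0.70 to -3.02. In all of them the libraries of the groups did not overlap, which was required for naming and which held for 27.4% of all genes tested in the direction higher and 31% in the direction lower. Under every alternative tried with all 4 libraries these genes kept their direction, and they passed the test, except RTF1 in the corrected fit with a block on crossed replicate numbers (edgeR adjusted p = 0.103). In the corrected fits without 1 library, 16 of the 20 higher and 12 of the 20 lower passed in all 4.

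The gene that rose most was CCND3, a D-type cyclin that drives cells through G1 with CDK4 and CDK6. It was at 63.7 and 59.9 CPM in siNC and at 161 and 167 CPM in siYAP1 libraries, a log2 fold change of 1.41 (SE 0.099, edgeR adjusted p = 4.25e-08) and of 1.30 after correction. The levels of the groups lay far apart and the replicates close together. E2F2, a transcription factor of S-phase genes that the retinoblastoma protein holds in check, was at 31.1 and 26.6 CPM in siNC and at 50.8 and 55.8 CPM in siYAP1 libraries (log2 fold change 0.88, corrected 0.77). PYGO2, a co-activator of beta-catenin in Wnt signalling, was at 65.8 and 60.5 against 123 and 115 CPM (0.91, corrected 0.75). BOD1, which helps chromosomes attach to the spindle, was at 35.0 and 35.9 against 66.2 and 61.6 CPM (0.85, corrected 0.69). These 4 genes passed the corrected test without any 1 library. PYGO2 shares its locus with SHC1 on the same strand, which had more reads and a log2 fold change of -0.19.

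Genes of the nucleus and mitochondria were also among those with the largest rises. BANF1, a small DNA-binding protein that joins chromatin to LEM-domain proteins of the nuclear envelope, was at 120 and 125 CPM in siNC and at 277 and 223 CPM in siYAP1 libraries (log2 fold change 1.03, corrected 0.81). siYAP1 replicate 1 was the higher of its siYAP1 libraries. PTPMT1, a phosphatase of cardiolipin synthesis in the mitochondrial membrane, was at 28.5 and 26.8 against 67.3 and 63.9 CPM (1.25, corrected 1.23). Counting by strand is not given in the sources used here, and reads of overlapping genes cannot be told apart. The genes overlapping PTPMT1 had log2 fold changes of -0.14 (KBTBD4), -0.11 (CELF1) and 0.22 (NDUFS3), and EIF1AD, which overlaps BANF1, had 0.25. NGRN, needed for assembly of the mitochondrial ribosome, was at 34.4 and 28.8 against 49.3 and 50.5 CPM (0.66, corrected 0.67). TRMT112, a partner of several RNA and protein methyltransferases, was at 122 and 139 against 244 and 198 CPM (0.76, corrected 0.56), beside -0.10 for ESRRA, which overlaps it. RAD54L2, a helicase of the SNF2 family, was at 25.6 and 24.2 against 35.1 and 40.8 CPM (0.61, corrected 0.69), and the overlapping TEX264 had 0.43.

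Among the other genes that rose, PDCD6, a calcium sensor of membrane repair and vesicle transport, was at 108 and 124 CPM in siNC and at 211 and 212 CPM in siYAP1 libraries (log2 fold change 0.86, corrected 0.85). PCSK7, a proprotein convertase, was at 40.5 and 38.4 against 60.9 and 61.8 CPM (0.64). The exonic length given for PCSK7 is 22303 bases, and its corrected value was larger, 0.91. MBTPS1, the protease that starts the release of SREBP sterol factors, was at 56.9 and 53.9 against 81.7 and 83.5 CPM (0.58, corrected 0.63). In these 3 genes replicates differed far less than groups did. AP3S2, a subunit of the AP-3 adaptor of lysosomal sorting, rose by 0.58, and MVB12B, a subunit of ESCRT-I, by 0.65. PSMG4, a chaperone of proteasome assembly, rose by 0.57 and SLC27A5, an acyl-CoA synthetase, by 0.59. These last 4 genes did not pass the corrected test in 1 of the 4 fits that leave out a library, the one without siYAP1 replicate 1 (edgeR adjusted p = 0.0854, 0.193, 0.145 and 0.277 in the order named). Overlapping genes make PCSK7 (TAGLN, log2 fold change 0.10), PSMG4 (SLC22A23, -0.32) and SLC27A5 (ZNF446, 0.33) uncertain.

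DIO3, which inactivates thyroid hormone, was at 18.6 and 19.5 CPM in siNC and at 39.5 and 37.6 CPM in siYAP1 libraries (log2 fold change 1.02, corrected 0.75). PTPN1, a phosphatase that dampens insulin and JAK signals, was at 46.2 and 39.8 against 61.6 and 68.8 CPM (0.60, corrected 0.55). Groups were separate in both, as naming required. C12orf57 was at 104 and 131 against 233 and 189 CPM (0.85, corrected 0.67). UGT2B11 belongs to the UDP-glucuronosyltransferases, which conjugate steroids. Its family holds near-identical copies, so its values of 10.8 and 12.5 against 19.1 and 19.0 CPM (0.71, corrected 0.85) are uncertain.

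Among genes that fell, ADD3 came next to YAP1. It encodes an adducin, a protein that caps actin and ties it to spectrin under the membrane. ADD3 was at 22.8 and 29 CPM in siNC and at 8.39 and 9.09 CPM in siYAP1 libraries, a log2 fold change of -1.56 (SE 0.163, edgeR adjusted p = 1.75e-05) and of -1.28 after correction. LAMA3, the alpha chain of laminin-332 in the basement membrane, was at 113 and 121 against 52.7 and 68.5 CPM (-0.95, corrected -0.86). SDC4, a heparan sulfate proteoglycan of focal adhesions, was at 72.4 and 70.1 against 37.8 and 43.3 CPM (-0.81, corrected -0.88). ADAM9, a membrane metalloprotease that sheds surface proteins, was at 58.5 and 66.4 against 29.4 and 29 CPM (-1.09, corrected -0.80). The 4 genes passed the corrected test whichever library was left out. MFAP3, named as a microfibril-associated protein, was at 33.7 and 28.4 against 15.3 and 16.7 CPM (-0.95, corrected -0.70). It overlaps FAM114A2 (-0.38) and GALNT10 (-0.09).

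HOXA10, a homeobox factor of the posterior body and urogenital tract, was at 41.4 and 38 CPM in siNC and at 23.3 and 19.6 CPM in siYAP1 libraries (log2 fold change -0.89, corrected -1.02). It has a GC content of 54.19%, on the side where the trend ran higher. ST3GAL2, a sialyltransferase of the Golgi, was at 20.9 and 16.0 against 10.4 and 10.9 CPM (-0.79, corrected -0.87). PLEKHA6, a protein with a pleckstrin homology domain, was at 29.6 and 30.3 against 17.4 and 19.5 CPM (-0.70, corrected -0.76). These 3 GC-rich genes fell further after the correction. RTF1, a factor of transcription elongation, was at 51.8 and 54.7 against 23.0 and 39.3 CPM (-0.77, corrected -0.70), and CDC40, a splicing factor, at 14.1 and 15.8 against 7.19 and 7.80 CPM (-1.0, corrected -0.72). The siYAP1 replicates of RTF1 lay far apart.

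Among the other genes that fell, OSTM1, the partner of the lysosomal chloride transporter CLC-7, was at 17.7 and 15.1 CPM in siNC and at 7.25 and 7.24 CPM in siYAP1 libraries (log2 fold change -1.18, corrected -0.91). CROT, which hands medium-chain acyl groups from peroxisomes to carnitine, was at 24.2 and 29.9 against 12.1 and 13.2 CPM (-1.09, corrected -0.86). FYCO1, an adaptor that links autophagosomes to kinesin, was at 78.2 and 64.5 against 37.6 and 48.9 CPM (-0.72, corrected -0.73). Groups were separate in these 3 genes, as naming required. MYO5B, a myosin that carries RAB11 vesicles, had a log2 fold change of -1.0 (corrected -0.84). ACBD5, which tethers peroxisomes to the endoplasmic reticulum, had -0.98 (corrected -0.81), and FHIP2A, of a complex that joins cargo to dynein, had -1.05 (corrected -0.78). FRY, a large scaffold protein, had -1.06 (corrected -0.83), and DHTKD1, a mitochondrial enzyme of lysine breakdown, -0.79 (corrected -0.78). NUCB2, a calcium-binding protein of the Golgi, had -1.0 (corrected -0.74). Of the genes that fell, MYO5B, FRY, ACBD5, DHTKD1, FHIP2A, CDC40 and RTF1 did not pass the corrected test without siYAP1 replicate 1. NUCB2 failed it without siYAP1 replicate 2, at an edgeR adjusted p = 0.0539.

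**Figure D3:**
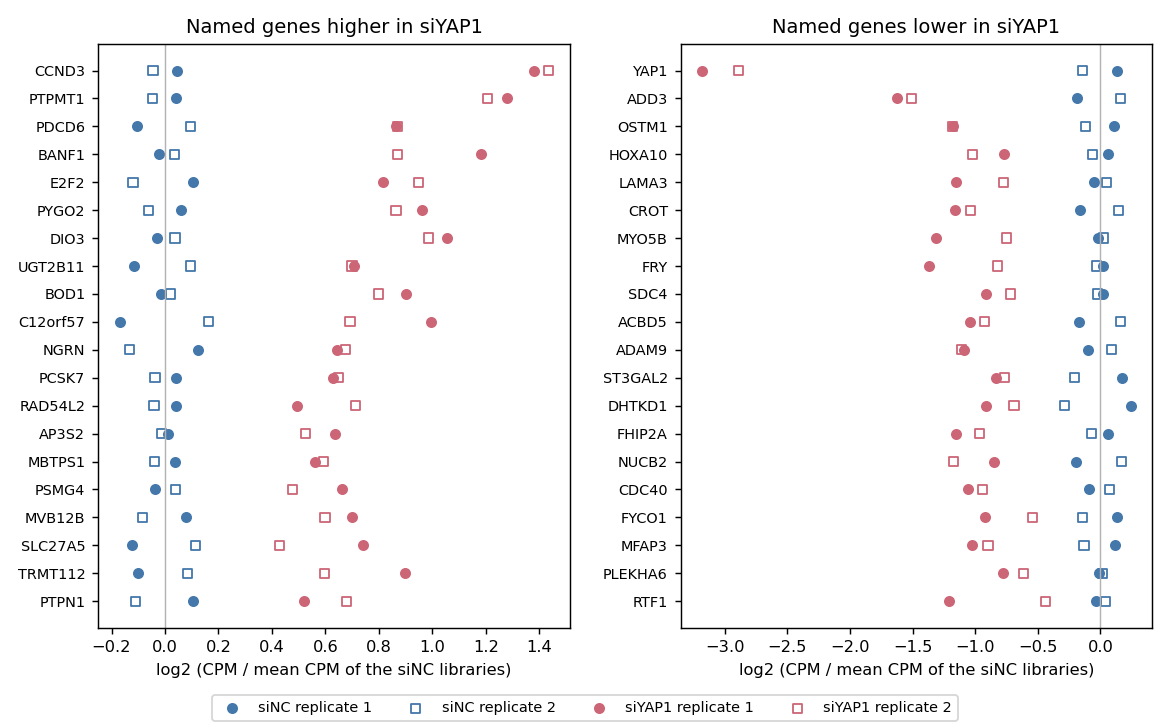
Log2 of the CPM in each library over the mean CPM of the siNC libraries (horizontal axis) for the 20 named genes higher (left) and lower (right) in siYAP1 cells, 1 row per gene. Blue marks are siNC and red marks siYAP1 libraries, filled for replicate 1 and open for replicate 2. The groups are separate in all 40 genes, which naming required, and replicates of RTF1 (23.0 and 39.3 CPM in siYAP1) lie farther apart than those of OSTM1 (7.25 and 7.24 CPM).

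Gene lists were then read through both fits. There were 52 lists with 1331 entries, of which 1330 were in the table. For each list the members called are set against the shares over all genes given above, and its median log2 fold change against that of all genes tested, -0.03 in both fits. No list was tested as a set. Members called in both fits are named whatever their level, and those with a mean under 10 CPM fall outside the naming rule and were chosen after their values were seen.

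Of the direct targets of YAP1 and its paralog TAZ, 12 of 22 were counted well enough to be tested, and 1 was called. AMOTL2, an angiomotin that binds YAP1, was at 18.0 and 16.2 CPM in siNC and at 11.1 and 12.8 CPM in siYAP1 libraries (log2 fold change -0.51, corrected -0.61, edgeR adjusted p = 0.0412). It was not called in the corrected fit without siNC replicate 1 or without siYAP1 replicate 1. The list median was -0.27 (corrected -0.28). CCN1, a matricellular protein, was at 16.6 and 15.6 against 12.2 and 12.7 CPM (-0.37, edgeR adjusted p = 0.119). LATS2, the kinase that inhibits YAP1, was at 6.22 and 6.12 against 4.52 and 4.43 CPM (-0.46, edgeR adjusted p = 0.16). The groups did not overlap in CCN1 or LATS2, as in 31% of all genes tested in the direction lower, and neither passed the test. CCN2, ANKRD1, AXL, F3 and NT5E were among the 10 members with too few counts to test. Among TEAD and VGLL genes, 5 of 9 were tested and 0 called. TEAD3 was lower in the corrected fit alone (-0.18, corrected -0.40). Of 26 Hippo kinases and upstream regulators, 6 were lower in the uncorrected fit, among them TAOK3 (-0.68, corrected -0.46) and DLG1 (-0.64, corrected -0.30), and 0 in the corrected fit. Their median moved from -0.27 to -0.07, and their median length was 8930 bases.

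Some adhesion and matrix genes fell in both fits. Of 19 integrin, laminin and collagen genes tested, 8 were lower in the uncorrected fit and 4 in both, 0 were higher in both, and the median was -0.32 (corrected -0.31). Beside LAMA3 these were LAMB1, a laminin beta chain, TNC, a glycoprotein of remodelled matrix, and HSPG2, the proteoglycan perlecan. TNC was at 11.7 and 9.72 CPM in siNC and at 2.80 and 4.88 CPM in siYAP1 libraries (log2 fold change -1.47, corrected -1.49). LAMB1 was at 4.80 and 3.98 against 1.46 and 2.02 CPM (-1.32, corrected -1.27), and HSPG2 at 68.3 and 72.5 against 41.0 and 61.0 CPM (-0.46, corrected -0.48). The siYAP1 replicates of HSPG2 lay far apart. The integrin genes ITGB1, ITGA6 and ITGAV had -0.59, -0.62 and -0.62 in the uncorrected fit and -0.32, -0.41 and -0.31 after correction, where none of the 3 passed. FN1, fibronectin, was higher in the corrected fit alone (0.13, corrected 0.46). Without siYAP1 replicate 1 the corrected fit called 2 of the 4 genes, and without siNC replicate 1 it called 3.

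Genes of the actin cytoskeleton moved in both directions. Of 35 focal adhesion and actin regulators, 1 was higher and 3 were lower in both fits. RHOB, a small GTPase of endosomes and stress fibres, was at 259 and 243 CPM in siNC and at 385 and 386 CPM in siYAP1 libraries (log2 fold change 0.62, corrected 0.40). MYLK, the kinase of myosin light chain, was at 32.5 and 28.1 against 15.2 and 22.5 CPM (-0.68, corrected -0.49), TPM4, a tropomyosin, at 123 and 126 against 83.9 and 89.0 CPM (-0.52, corrected -0.46), and IQGAP2, a scaffold of CDC42 and RAC1, at 8.33 and 9.51 against 2.48 and 4.60 CPM (-1.32, corrected -1.05). Smooth muscle actin, ACTA2, also fell, from 27.1 and 26.4 to 20.3 and 16.5 CPM (-0.54, corrected -0.66). ACTA2 is also a fibroblast marker, and the summed FPKM of the 10 markers was 11.43 and 11.24 in siNC and 8.29 and 8.22 in siYAP1 libraries, of which ACTA2 made up the most. The part of other cells in these values was not tested. Of 15 membrane skeleton genes, ADD3 and EPB41L4B, a FERM-domain protein (-0.71, corrected -0.65), fell and EPB41L1 rose (0.41, corrected 0.38). Without siYAP1 replicate 1 the corrected fit called RHOB, ADD3, EPB41L4B and ACTA2 and 1 of the other 3 focal adhesion genes, and did not call EPB41L1.

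Some epithelial genes fell in both fits. Of 6 keratins tested, KRT80 and KRT7, keratins of simple and differentiating epithelia, were called. In the uncorrected fit 3 of the 6 were above 0 and 3 below, and after correction 2 and 4. KRT8 was at 135.15 and 139.39 FPKM in siNC and at 150.86 and 143.34 FPKM in siYAP1 libraries. KRT18 was at 168.61 and 158.76 against 188.88 and 176.65 FPKM, and neither KRT8 nor KRT18 was called in either fit. KRT80 was at 6.06 and 6.23 CPM in siNC and at 1.53 and 1.79 CPM in siYAP1 libraries (log2 fold change -1.88, corrected -2.02), and KRT7 at 2.64 and 2.58 against 0.763 and 0.841 CPM (-1.69, corrected -1.90). Both stayed called whichever library was left out of the corrected fit. KRT7 and EPHA2, an ephrin receptor (-0.52, corrected -0.70), also belong to 10 markers of other prostate cancer lines. The summed FPKM of those 10 markers was 7.64 and 6.56 in siNC and 4.09 and 5.20 in siYAP1 libraries. EPHA2 made up the most of it, at 5.43 and 4.51 against 3.04 and 3.39 FPKM. LCN2 was at 1.13 and 0.85 against 0.85 and 1.13 FPKM, and VIM had 13 and 18 against 0 and 36 counts. Of the 10, 4 were tested and 2 of these were called lower. In the uncorrected fit 2 of the 4 were above 0 and 2 below, and after correction 1 and 3. CAV1, CD44, AXL and ANXA1 had at most 4 counts in any library. The part of such cells was not tested, and in bulk RNA fewer cells of a type and less RNA per cell cannot be told apart. Of 23 junction genes, 0 were higher and 2 lower in both fits, and the median was -0.11 (corrected -0.10). DSP, desmoplakin of desmosomes, was at 126 and 125 against 75.1 and 94.5 CPM (-0.56, corrected -0.45). CDH1, E-cadherin, was at 478 and 424 against 323 and 373 CPM (-0.37, corrected -0.34). Neither DSP nor CDH1 was called in the corrected fit without siYAP1 replicate 1.

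Receptors and genes linked with stem cells were lower or did not pass. Of 29 Wnt and R-spondin genes, PYGO2 rose, and LGR4, a receptor for R-spondins, and FZD6, a Frizzled receptor, fell. The median of the 29 was -0.02 (corrected -0.05). LGR4 was at 12.1 and 7.90 CPM in siNC and at 3.69 and 3.93 CPM in siYAP1 libraries (log2 fold change -1.39, corrected -1.17), and FZD6 at 16.7 and 17.8 against 9.79 and 10.3 CPM (-0.78, corrected -0.56). Of 12 tested genes of a stemness list, 7 were lower in the uncorrected fit and 3 in both, with a median of -0.62 (corrected -0.48). The 3 were LGR4, ALDH1A3, an aldehyde dehydrogenase that makes retinoic acid, and SOX9, a transcription factor of prostate progenitors. ALDH1A3 was at 8.54 and 7.95 against 3.82 and 3.42 CPM (-1.19, corrected -1.22), and SOX9 at 12.5 and 9.78 against 6.17 and 7.85 CPM (-0.66, corrected -0.73). This list was known to be lower from earlier results of these libraries and is not independent evidence. Without siYAP1 replicate 1 the corrected fit called 2 of the 3 stemness genes, and without siNC replicate 1 it called 1. Of 24 growth factor receptors, with a median of -0.25 (corrected -0.15), 5 were lower in the uncorrected fit and EPHA2 in both. EGFR was among the 5 (-0.59, corrected -0.42). EPHA2 was not called in the corrected fit without siYAP1 replicate 1, and in each of the 4 fits lacking a library 1 of LGR4 and FZD6 was called.

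The androgen-responsive genes called in both fits were lower. KLK3, which encodes prostate-specific antigen, was at 1117 and 1171 CPM in siNC and at 1261 and 1240 CPM in siYAP1 libraries (log2 fold change 0.13, edgeR adjusted p = 0.394). Of 26 androgen targets and luminal genes, 0 were higher and 3 lower in both fits, beside 1.04% and 1.44% of all genes. The list median was -0.09 (corrected -0.05). TRPM8, a cold-sensing ion channel, was at 52.7 and 44.5 against 28.1 and 33.2 CPM (-0.66, corrected -0.45), HERC3, a ubiquitin ligase, at 42.8 and 34.3 against 16.7 and 23.6 CPM (-0.93, corrected -0.70), and NDRG1 at 80.3 and 79.9 against 56.9 and 58.3 CPM (-0.48, corrected -0.45). NCOR1, a co-repressor of nuclear receptors, was the 1 gene called of 15 nuclear receptors, pioneer factors and coregulators, at 114 and 116 against 63.0 and 82.0 CPM (-0.67, corrected -0.42). The corrected fit called 1 of the 3 androgen targets and not NCOR1 without siYAP1 replicate 1.

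In the cell cycle lists, CCND3 and E2F2 were the 2 of 21 G1 genes called in both fits. CCND1, another D-type cyclin, was at 182 and 177 CPM in siNC and at 163 and 176 CPM in siYAP1 libraries (log2 fold change -0.08, edgeR adjusted p = 0.593). CDKN1A, which encodes the CDK inhibitor p21, was higher in the uncorrected fit alone (0.38, corrected 0.18), and so was E2F1 (0.50, corrected 0.23). Of 37 DNA replication genes 1 was called higher, DUT, which clears dUTP (0.38, corrected 0.47), and it was lost without siYAP1 replicate 1 or siNC replicate 2. Of 30 mitosis genes, 3 were higher and 5 lower in the uncorrected fit and 0 in both. AURKB (0.43, corrected 0.23) and BUB1 (-0.59, corrected -0.38) show the directions. Of 25 p53 targets, RRM2B, a ribonucleotide reductase subunit (-0.86, corrected -0.58), and TIGAR, a regulator of glycolysis (-0.67, corrected -0.67), fell. RRM2B was not called in the corrected fit without siYAP1 replicate 1 or without siNC replicate 1, and TIGAR was called in none of the 4 corrected fits that lack a library.

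Genes of amino acid supply and protein folding rose in part. Of 27 genes of the integrated stress response, in which ATF4 induces genes of amino acid supply, 10 were higher in the uncorrected fit and 3 in both, and 0 were lower in either. The median was 0.23 (corrected 0.15). ASNS, asparagine synthetase, was at 148 and 145 CPM in siNC and at 208 and 199 CPM in siYAP1 libraries (log2 fold change 0.47, corrected 0.50). CHAC1, which degrades glutathione, was at 18.7 and 24.4 against 36.0 and 39.2 CPM (0.81, corrected 0.52), and NUPR1, a stress-induced chromatin protein, at 132 and 144 against 216 and 186 CPM (0.54, corrected 0.38). ATF4 itself was higher in the uncorrected fit alone (0.31, corrected 0.11). SLC7A11, the cystine transporter, was higher in the corrected fit alone (0.23, corrected 0.55). Of 20 cytosolic aminoacyl-tRNA synthetases, MARS1, GARS1 and CARS1 rose and 0 fell in both fits, and the median was 0.07 (corrected 0.03). MARS1 was at 210 and 210 against 292 and 291 CPM (0.47, corrected 0.43), GARS1 at 236 and 240 against 317 and 328 CPM (0.44, corrected 0.42), and CARS1 at 74.5 and 72.9 against 103 and 93.6 CPM (0.42, corrected 0.45). PDIA4, a disulfide isomerase, was the 1 gene of 26 for folding in the endoplasmic reticulum that was called, at 209 and 203 against 298 and 310 CPM (0.56, corrected 0.44). Without siYAP1 replicate 1 the corrected fit called 2 of the 3 stress genes, 2 of the 3 synthetases and PDIA4, and without siNC replicate 1 it called 1 of the 3 stress genes.

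Ribosomal genes were called higher more often in the uncorrected than in the corrected fit, and nuclear respiratory genes about as often in each. The median exonic length was 2985 bases for large-subunit and 2656 for small-subunit genes, beside 4262 for all genes tested. Of 44 large-subunit genes 11 were higher without correction, 5 after it and 3 in both fits (RPL13, RPL15 and RPL27A), and of 31 small-subunit genes 10, 4 and 2 (RPSA and RPS3), with 0 lower. Their medians were 0.18 (corrected 0.13) and 0.24 (corrected 0.19). RPL13 was at 3203 and 3608 CPM in siNC and at 5473 and 4351 CPM in siYAP1 libraries, and siYAP1 replicate 1 was the highest. The corrected fit without that library called 0 of the 5 genes. Their many near-identical pseudogenes make these values uncertain. Of 40 mitochondrial ribosomal genes 8 were higher without correction, 3 after it and 1 in both, MRPL27 (0.37, corrected 0.42). Of 49 nuclear genes of oxidative phosphorylation 6 were higher without correction, 5 others after it and 0 in both, and NDUFA4 fell (-0.51, corrected -0.33). The 5 were NDUFA9 (0.16, corrected 0.32), NDUFA10 (0.27, corrected 0.40), COX6C (0.22, corrected 0.34), COX7C (0.22, corrected 0.32) and ATP5MC3 (0.14, corrected 0.40). MRPL27 was lost without siYAP1 replicate 1 or siNC replicate 1, and NDUFA4 without siNC replicate 1 or siYAP1 replicate 2. Of the 13 mitochondrially encoded mRNAs, MT-ND2 was called (0.38, corrected 0.36), and not without siYAP1 replicate 1 or siNC replicate 2. Among the cardiolipin genes, PTPMT1 was the 1 called of 10.

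Some genes of the cholesterol and fatty acid lists fell in both fits, while SLC27A5 and MBTPS1, described above, rose. Of 26 cholesterol genes tested, 12 were above 0 and 14 below without correction, with a median of -0.06 (corrected -0.02). NPC1, which exports cholesterol from lysosomes, was at 101 and 91.6 CPM in siNC and at 60.7 and 78.6 CPM in siYAP1 libraries (log2 fold change -0.47, corrected -0.41). Of 21 fatty acid genes 0 rose and 3 fell in both fits, and the median was -0.20 (corrected -0.12). The 3 were ACSL1 and ACSL5, which activate long-chain fatty acids, and FADS1, a desaturase. ACSL1 was at 218 and 192 against 125 and 150 CPM (-0.57, corrected -0.44), ACSL5 at 7.96 and 6.12 against 2.16 and 2.97 CPM (-1.45, corrected -1.35), and FADS1 at 98.1 and 83.6 against 61.4 and 73.9 CPM (-0.42, corrected -0.36). Groups did not overlap in these genes, as in 31% of all genes tested in the direction lower. Leaving out siYAP1 replicate 1, the corrected fit called 1 of the 3 fatty acid genes and not NPC1.

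Trafficking genes were mixed. The values are transcript levels in cells, and vesicle release was not measured in these libraries. Of 43 genes of vesicle biogenesis and release, 6 were higher and 3 lower without correction, and 0 higher and 2 lower in both fits. Their median was 0.05 (corrected -0.01). The 2 were SDC4, which recruits syntenin, and the tetraspanin CD82, at 14.4 and 14.1 CPM in siNC and at 8.84 and 9.59 CPM in siYAP1 libraries (log2 fold change -0.63, corrected -0.80). SDCBP, the gene for syntenin, was lower in the uncorrected fit alone (-0.42, corrected -0.19). Of 28 sorting nexin and retromer genes, 7 were lower without correction and 3 in both, namely SNX9, which shapes endocytic membrane (-0.63, corrected -0.61), SNX10 (-1.35, corrected -1.14) and SNX30 (-0.75, corrected -0.55). The median of the nexins moved from -0.29 to -0.13. Of 33 Golgi glycosylation enzymes, MGAT1 (0.40, corrected 0.32) and B4GALT2 (0.49, corrected 0.29), which extend N-glycans, rose, and ST3GAL2 and the mannosidase MAN2A1 (-1.48, corrected -1.15) fell. ZDHHC20, a palmitoyltransferase, was at 8.22 and 7.14 against 2.86 and 3.14 CPM (-1.35, corrected -1.23). When siYAP1 replicate 1 was left out, the corrected fit called 0 of the 3 nexins, neither MGAT1 nor B4GALT2 and 1 of the 2 vesicle genes, and it still called ST3GAL2, MAN2A1 and ZDHHC20.

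Lists of oxygen, stress and RNA genes held from 0 to 3 calls each in both fits. Of 33 hypoxia and glycolysis genes, 0 rose and 3 fell in both fits, and the median was -0.00 (corrected -0.04). PGAM1, a glycolytic mutase, was at 301 and 271 CPM in siNC and at 219 and 211 CPM in siYAP1 libraries (log2 fold change -0.41, corrected -0.56). The others were EGLN3, an oxygen-sensing hydroxylase (-0.46, corrected -0.42), and NDRG1. All 3 were also called without siYAP1 replicate 1 after correction, and 2 of them without siYAP1 replicate 2. Of 32 NRF2 and antioxidant genes, 6 were higher without correction and AKR1C2 in both (0.35, corrected 0.62), which has near-identical family members and is uncertain. IFIT1, an interferon-induced RNA sensor, fell from 1.58 and 2.47 to 0.763 and 0.337 CPM (-1.89, corrected -1.78), the 1 gene called of 35 for interferon response and antigen presentation, at a level of few counts. IFIT1 was lost without siNC replicate 2 or siYAP1 replicate 2. Of 10 NF-kB genes 0 passed in either fit. Of 31 SR proteins and hnRNPs, 3 were lower without correction and 3 others higher after it, and 0 in both. HNRNPD (0.10, corrected 0.40) was one of these, and the median of the list went from -0.06 to 0.12. TNRC6B, a partner of Argonaute proteins, was the 1 gene called of 13 for RNA interference (-0.73, corrected -0.43), and DICER1 was lower without correction alone (-0.74, corrected -0.39). STMN1, which takes microtubules apart and is raised in neuroendocrine tumours, was at 170 and 157 against 238 and 209 CPM (0.45, corrected 0.73). BCL2L2, which opposes cell death, was the 1 gene called of 30 BCL2 and caspase genes (-0.44, corrected -0.52). BCL2L2 and TNRC6B were lost after correction without siYAP1 replicate 1, and TNRC6B also without siNC replicate 1 or siYAP1 replicate 2.

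**Figure D4:**
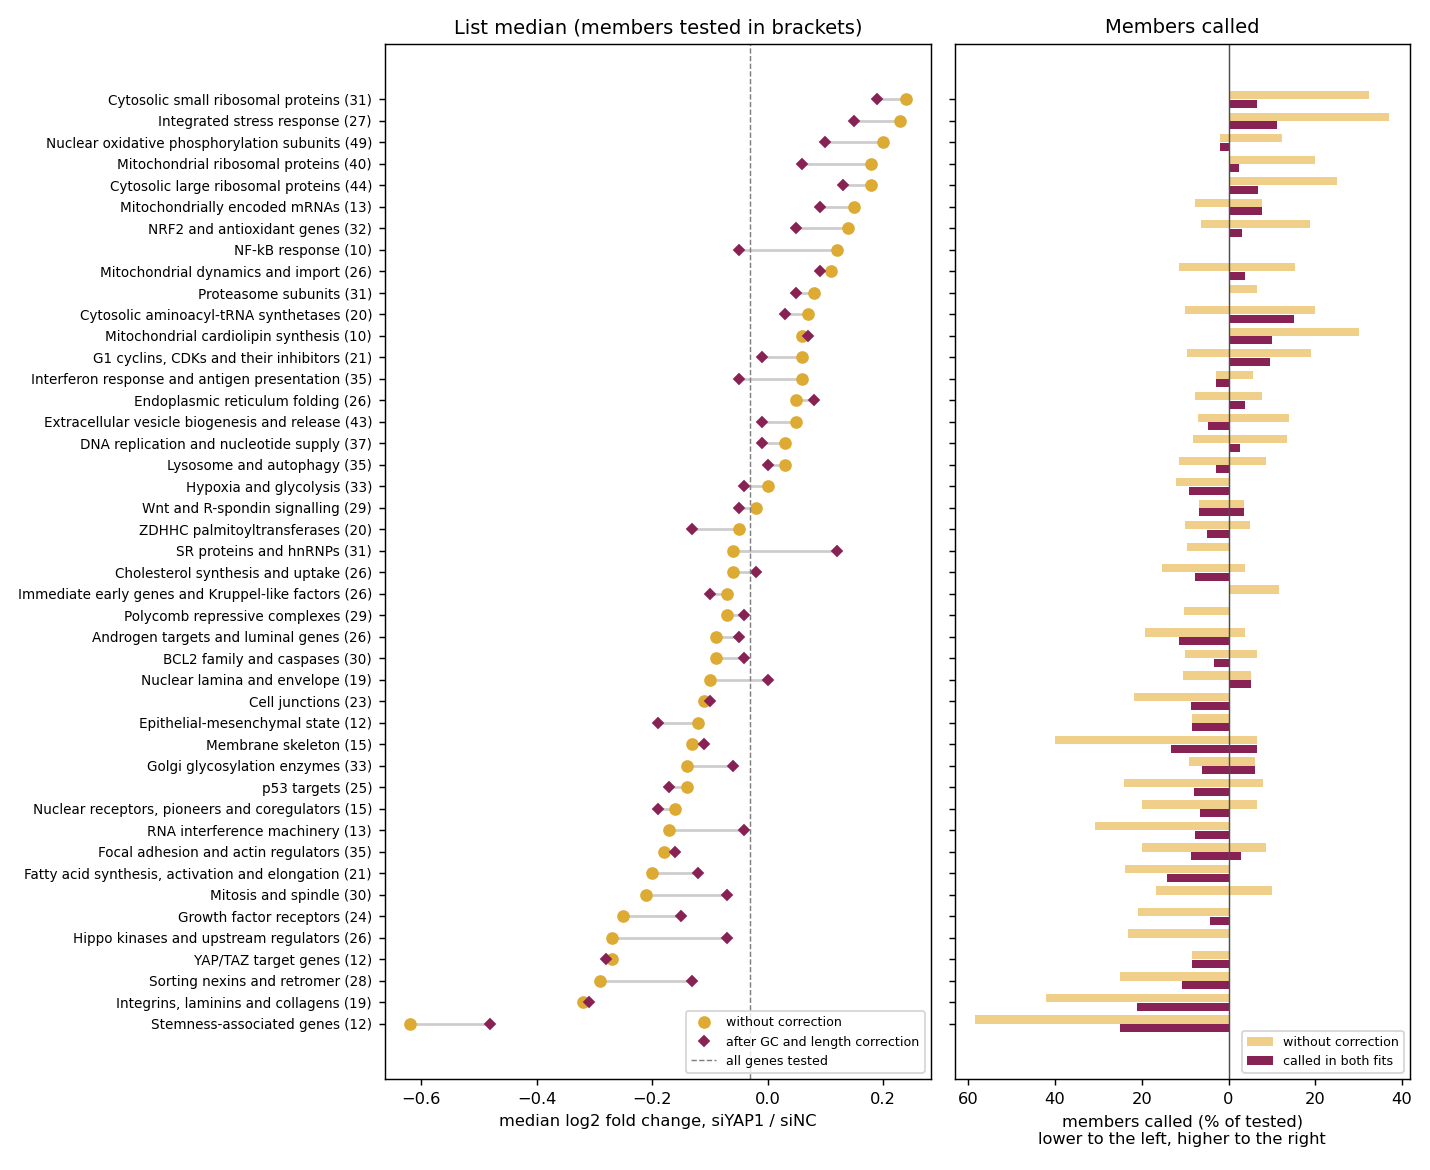
Left, median log2 fold change of siYAP1 over siNC in each gene list with at least 10 tested members, without (circles) and after (diamonds) the GC and length correction, with the median of all genes tested as a dashed line. Right, share of tested members called in percent, lower to the left and higher to the right, without correction (pale) and in both fits (dark). The integrin and laminin list stays at -0.32 and -0.31, the Hippo kinase list moves from -0.27 to -0.07, and in most lists the dark bars are shorter than the pale ones.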

How the data were processed

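The authors deposited 1 table of 57905 Ensembl genes with raw read counts and FPKM per library, and exonic lengths. Per the submitters' processing notes, the tools were HTSeq 0.6.1, HISAT2 2.0.1, DESeq2 and cutadapt 1.9.1 and the build hg19 (GRCh37), with no roles stated. How strand was handled and which annotation release was counted is not given in the sources used here. The deposited FPKM equalled the count over length and total within 0.005 and served only to describe markers. No row lacked a gene (0), and names matched 51996 identifiers (99.28% of counts).

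The 2 EnzaR groups, taken from the labels, were compared by the robust quasi-likelihood test of edgeR 4.0.16 (R 4.3.3) after filterByExpr and TMM scaling, without covariates. P-values were adjusted by Benjamini-Hochberg over all genes tested, with a threshold of 0.05, and the common dispersion was 0.0075. For the corrected fit a smooth surface of GC content and log2 length (mgcv 1.9.3, basis dimension 6, prior count 0.5) was fitted per library and used as an offset. Its weights for count precision were chosen after an unweighted surface left a residual trend. GC content is that of the longest GENCODE 29 transcript (GRCh38), matched by identifier for 14547 genes (97.3%). Replicates differed beyond sampling noise (chi-square per degree of freedom 6.36 and 7.48).

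Named genes are YAP1, then the 20 per direction with the largest change in the smaller of the 2 fits among genes called in both with a mean of 10 CPM and groups that do not overlap, and up to 4 members per list at a mean of 10 CPM called in the uncorrected fit. Some genes that the rule took are not reported here. The comparison and the lists were chosen with earlier results of these data known. The procedure was tested on simulated data. Alternatives were DESeq2 1.42.0, limma-voom (limma 3.58.1), other scalings, filters and corrections, a block on replicate number and each library left out.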

Additional observations from a re-analysis of the deposited data

How the results depend on the processing

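The uncorrected counts, 872 genes higher and 930 lower, moved by over 1.5 times under several settings. They were 264 and 280 with the GC and length correction, 220 and 252 with an unweighted surface, and 181 and 232 with GC content alone. Library totals gave 291 and 1416, and DESeq2 gave 467 lower. Leaving out 1 library gave 3 to 682 higher and 1 to 841 lower without correction, the lowest without siYAP1 replicate 1, and with it 271, 329, 50 and 473 higher and 435, 339, 77 and 373 lower (without siNC replicates 1 and 2 and siYAP1 replicates 1 and 2, in that order). The counts called in both fits, 152 and 209, then ranged from 3 to 239 and from 1 to 295. In such fits the remaining library was taken to vary as much as the intact group. Among the 40 genes named by size, 36 lost the call without siYAP1 replicate 1 (11 with the correction), 2 without siNC replicate 1 and 5 without siYAP1 replicate 2, and 0 reversed.

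Of list members called without correction, 7 reversed, and none passed the test where it did so. NR2F6 was at -0.00 with the correction, and at -0.02 without siNC replicate 2. In corrected fits lacking a library, SDF2L1 was at -0.08 and -0.02, JUNB at -0.04 and -0.02, GPX1 at -0.01 and -0.04, BAD at -0.04, SNX5 at 0.01 and TPR at 0.17.

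The replicates share only a number across groups, with no source for a pairing. Same-numbered deviations had a correlation of -0.225 over genes with a mean of 10 CPM. With the replicate block 564 genes were higher and 845 lower, and with the block and the correction 289 and 371. Both blocked fits called 140 and 258. Crossing the numbers, which was chosen after seeing the data, gave 1518 higher and 1302 lower, and 491 and 441 in both fits.

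Counts limit genes near 0.18 CPM, the level of 3 counts, where differences were not detectable.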
